A study of Mus musculus with 6 samples.

Results

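The STAT transcription factors examined here are the 6 mouse genes Stat2, Stat3, Stat4, Stat5a, Stat5b and Stat6, followed in liver with and without Sec15. Their probes were chosen by name: every non-control array probe whose transcript matched 1 of these symbols was taken, and each probe was kept separate. This gave 10 probes for 6 genes, of 39429 non-control probes and 20659 named genes on the array. All 10 probes could be tested, and 9 of the 10 were well above background on all 6 arrays.

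Total RNA came from liver of untreated male mice, 6 weeks old, in 2 groups: 3 WT samples and 3 Sec15 KO samples, each hybridised to its own 1-colour (Cy3) Agilent oligonucleotide array. The exocyst, the assembly that docks secretory vesicles at the cell surface, has Sec15 as one of its subunits. The series asks how Sec15 directs the traffic of STAT3 in the context of blood stem cell fate. How the KO was made, which cells lack the gene and the strain are not given in the sources used here. Nor is it stated that the 3 samples of a group came from separate animals, so a p-value here covers only the variation among these 6 samples, which may be technical.

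STATs wait in the cytoplasm until a cytokine or hormone receptor is engaged. Janus kinases (JAKs) bound to that receptor then phosphorylate them, and they dimerise, enter the nucleus through importins and switch on their target genes. In liver, STAT3 carries the interleukin-6 signal to the acute phase genes, and STAT5B carries the growth hormone signal to genes that differ between males and females. STAT2 belongs to the response to type I interferon, STAT4 to interleukin-12 and STAT6 to interleukin-4 and interleukin-13. These arrays read RNA, so they hold no measure of STAT phosphorylation or position in the cell.

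Values are log2 signals relative to the 75th percentile of all non-control probes on the same array, and a difference is the KO mean minus the WT mean on that scale. A probe was called when its adjusted p from limma, with Benjamini-Hochberg adjustment over the 27024 probes tested, was under 0.05. Levels of different probes cannot be set against each other, because probes differ in how strongly they hybridise, so no order of abundance among the STAT genes is given. Normexp background correction, an alternative to the deposited background step, gave a smaller difference for 43 of the 46 called probes among the STATs and the genes singled out below, and one smaller by over 1.5 times for 19 of them; it is given beside those.

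Some facts of the whole data set bear on what follows. Between 67.27% and 70.27% of probes were well above background on the WT arrays, and between 64.82% and 65.44% on the KO arrays. Mouse has a pair of Sec15 genes, Exoc6 and Exoc6b. The single Exoc6 probe was well above background on 1 of 6 arrays and so checks nothing. The brighter Exoc6b probe fell 1.44-fold in KO (adjusted p = 0.0436, limma), and the other Exoc6b probe was not well above background on any array. Whether these probes lie in a deleted part is not known. The 3 WT arrays and KO replicate 2 share a scan time in their headers (scan 1), while KO replicates 1 and 3 share another (scan 2), so all 3 WT arrays lie in 1 scan. A fit with the scan as a block therefore compares KO replicate 2 with the WT arrays, and it is given beside the results that it changes. WT replicate 3 and KO replicate 3 also weigh on the calls: without WT replicate 3, 204 probes were called higher and 149 lower.

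Across the STAT family, 3 of 10 probes were called, against 28.6% of all probes tested. Of these 3, 1 was higher in KO against 17.0% of all probes, and 2 were lower against 11.6%. The median difference of the 10 probes was 0.016, against 0.076 for all probes, and the differences ran from -1.38 to 0.41. In 5 of the 10 probes the KO and WT values did not overlap, against 50.2% of all probes: 3 were higher, against 30.6%, and 2 were lower, against 19.6%. The family as a group thus stood close to the background share, and the results below concern its individual members.

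**Figure D1:**
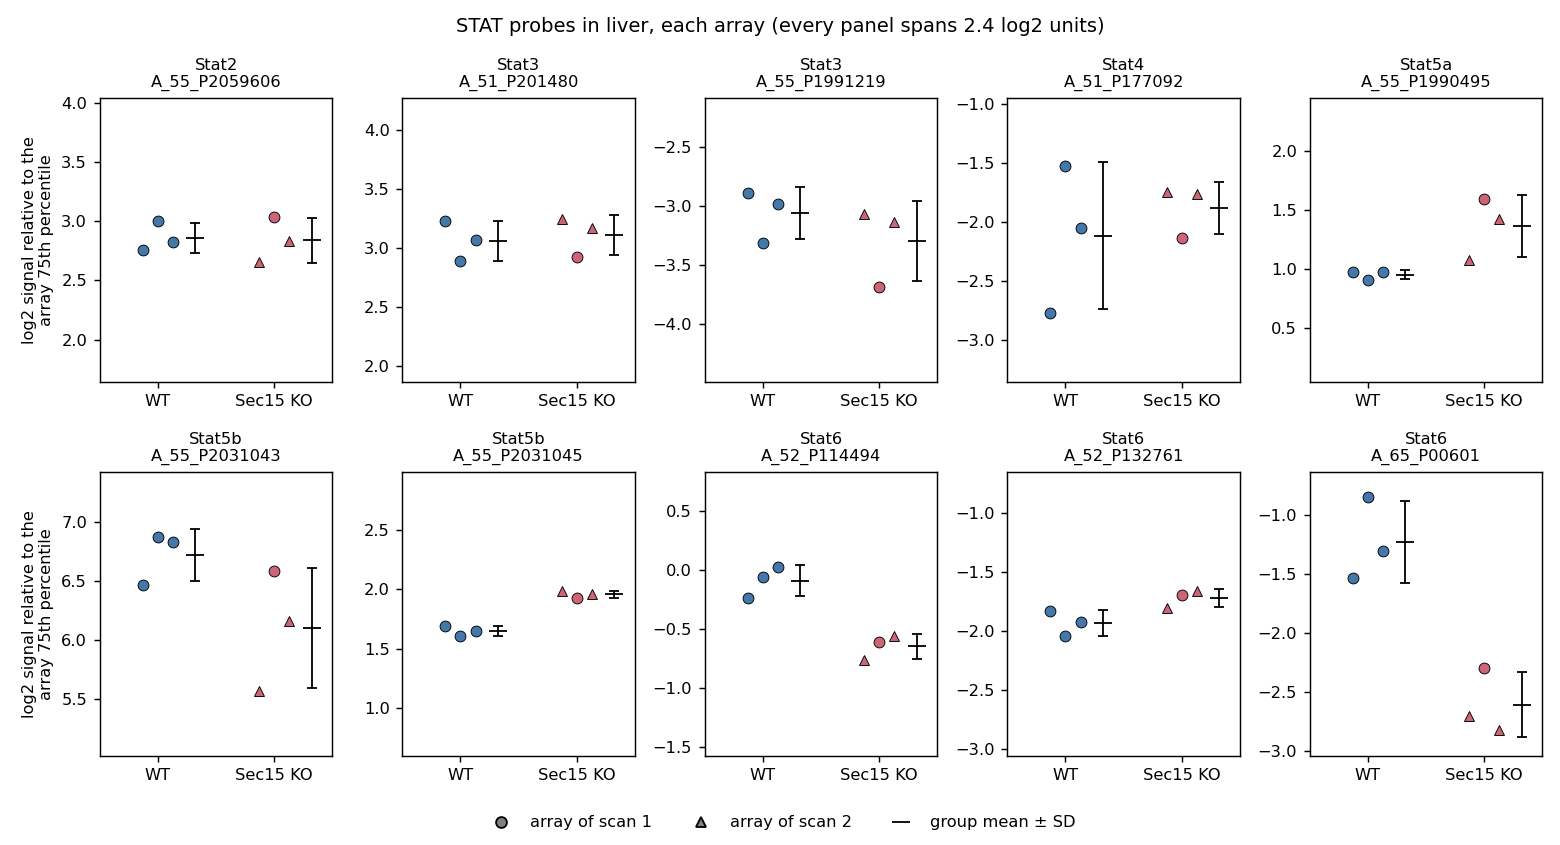
Each panel shows 1 STAT probe, with the log2 signal relative to the array 75th percentile on the y axis and 1 point per array; circles are arrays of scan 1 and triangles arrays of scan 2, and the bars give the mean ± SD of 3 arrays. The Stat3 panels overlap fully between groups, Stat5a and the dimmer Stat5b probe lie higher in KO, and 2 of the 3 Stat6 probes lie lower in KO while the other lies higher.

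Stat3, the factor the study is about, did not pass the test with either probe. Its bright probe (A_51_P201480) read 3.23, 2.89 and 3.07 in WT replicates 1 to 3 and 3.25, 2.92 and 3.17 in KO replicates 1 to 3. The groups overlapped throughout, with WT replicate 2 the lowest of the 6 and KO replicate 1 the highest. The difference was 0.051 ± 0.14 (SE, n = 3 against 3), with a 95% interval from -0.29 to 0.39 (limma adjusted p = 0.793), so a fold between 0.818 and 1.31 lies within it. This probe is printed as 10 spots on each array, and the SD between spots was 0.018 to 0.096, below the SD between samples of 0.168 in WT and 0.169 in KO. The sign of this difference was not fixed: cyclic loess normalisation gave -0.22, and a block for the scan gave -0.14.

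The other Stat3 probe (A_55_P1991219), matched to another RefSeq transcript of the gene, was dim. It read -2.89, -3.31 and -2.98 in WT and -3.06, -3.68 and -3.13 in KO, and KO replicate 2 was not well above background. The groups overlapped, and the difference of -0.23 ± 0.21 (SE) did not pass the test (limma adjusted p = 0.408). Set against each other on the same array, the bright probe exceeded the dim one by 6.11, 6.20 and 6.05 in WT and by 6.31, 6.60 and 6.30 in KO. The highest of these, from KO replicate 2, rests on the dim signal near background, and the other KO arrays also lay above all 3 WT arrays.

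Stat5a and Stat5b are near-identical genes that lie next to each other on chromosome 11, with Stat3 beyond Stat5a. Stat5a (A_55_P1990495) read 0.97, 0.90 and 0.98 in WT and 1.08, 1.59 and 1.42 in KO. All KO values were above all WT values, with KO replicate 1 close to the WT range. The difference was 0.41 ± 0.15 (SE), a 1.33-fold ratio, and it missed the threshold (limma adjusted p = 0.0849). It passed the test when arrays were centred on their median (0.53, adjusted p = 0.0307) and without KO replicate 1 (0.55, adjusted p = 0.0475).

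Stat5b, which carries the growth hormone signal in hepatocytes, was read by a pair of probes whose differences had opposite signs. The bright probe (A_55_P2031043) read 6.47, 6.87 and 6.83 in WT and 5.57, 6.58 and 6.16 in KO. KO replicates 1 and 3, the arrays of scan 2, lay below WT, and KO replicate 2 lay within it. The difference was -0.62 ± 0.27 (SE) with a 95% interval from -1.29 to 0.05, and it did not pass the test (limma adjusted p = 0.131). With the scan as a block it was -0.14, and without KO replicate 2 it was -0.86 (adjusted p = 0.0324, limma).

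The dimmer Stat5b probe (A_55_P2031045) read 1.69, 1.60 and 1.64 in WT and 1.98, 1.93 and 1.96 in KO. The groups were tight and did not overlap. This probe rose by 0.31 ± 0.086 (SE), or 1.24-fold (limma adjusted p = 0.0433). The call is a marginal one: the probe was called in 6 of the 18 alternative fits. It was lost with the scan as a block (0.28, adjusted p = 0.133), after cyclic loess normalisation (0.10, adjusted p = 0.368), with normexp (0.16) and without any single array other than KO replicate 2, at adjusted p from 0.0607 without WT replicate 1 to 0.166 without WT replicate 3. Within each array, the bright probe exceeded the dimmer one by 4.78, 5.27 and 5.18 in WT and by 3.59, 4.66 and 4.20 in KO. That is a shift of -0.93 between the groups, which did not overlap (exact two-sided permutation p = 0.1).

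Stat6, the mediator of interleukin-4 and interleukin-13 signals, had 2 of the family's 3 called probes, and its 3 probes did not move together. The first (A_52_P114494) read -0.24, -0.054 and 0.025 in WT and -0.76, -0.61 and -0.56 in KO. All KO values were below all WT values, and the probe fell by 0.56 ± 0.12 (SE), or 1.47-fold (limma adjusted p = 0.0211). The second (A_65_P00601) read -1.53, -0.85 and -1.31 in WT and -2.71, -2.30 and -2.82 in KO. It fell by 1.38 ± 0.22 (SE), or 2.60-fold, again without overlap (limma adjusted p = 0.0125); normexp gave -0.61.

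The remaining Stat6 probe (A_52_P132761) read -1.83, -2.05 and -1.92 in WT and -1.81, -1.69 and -1.67 in KO. Its KO values all lay above its WT values, but by little, and the difference of 0.21 ± 0.10 (SE) did not pass the test (limma adjusted p = 0.158). All 3 probes are matched to the same RefSeq transcript. Within arrays, A_52_P132761 gained 1.59 on A_65_P00601 and 0.77 on A_52_P114494, written as a shift of -0.77 for the reverse order. Even the called probes fell unequally, with a within-array shift of 0.82. None of these 3 contrasts overlapped between groups, each at an exact two-sided permutation p of 0.1, the smallest that 3 against 3 can give. Over the 5 probe pairs of the family, adjusted p was 0.1 throughout. The 3 contrasts are not independent, as any 2 of them fix the other. How often probe pairs of other genes do not overlap was not computed.

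The falls of both called Stat6 probes kept their direction in every alternative fit. As their groups did not overlap, only a change of scaling or background correction could have turned it. With the scan as a block they were -0.52 (adjusted p = 0.0914) and -1.07 (adjusted p = 0.0704, limma). The call of A_52_P114494 was lost without WT replicate 2 (adjusted p = 0.0711), WT replicate 3 (0.101), KO replicate 1 (0.066) or KO replicate 3 (0.0744). It was lost after normexp background correction too (-0.31, adjusted p = 0.0544). The call of A_65_P00601 was lost without WT replicate 3 (adjusted p = 0.0618, limma) or KO replicate 3 (0.0585).

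STAT6 and STAT4 are known from lymphocytes as well as from other cells, so markers of such cells were examined. Their counts stand against 18.7% called higher and 10.7% called lower over the 15544 named genes tested, with a median difference of 0.11. Of 15 lymphocyte markers tested, 6 were lower and 1 was higher in KO, and 10 of the 15 were well above background on all 6 arrays. Their summed signal relative to the array 75th percentile was 46.93 to 51.27 in WT and 29.75 to 32.46 in KO. Much of that sum is 1 Cd4 probe: without Cd4, a sum added after the values were seen, it was 13.66 to 16.84 in WT and 10.41 to 11.98 in KO. Cd3e, a chain of the T cell receptor complex, fell 1.48-fold and Cd4 1.67-fold by its brighter probe (the other, A_52_P383089, stood at -0.16, adjusted p = 0.26), while the T cell kinase Zap70 rose 1.49-fold (limma adjusted p = 0.0329, 0.0117 and 0.0315). Of 10 Kupffer cell and macrophage markers, 3 were higher and none was lower, with a summed signal of 35.63 to 35.87 in WT and 46.86 to 61.53 in KO. When the scan was a block, 2 lymphocyte markers were lower and 0 of these macrophage markers were higher. Of 11 erythroid markers 7 were higher and 1 was lower, with a summed signal of 83.45 to 128.6 in WT and 344.9 to 442.5 in KO, and 7 were called higher without any single array as well. Of 8 pancreas acinar markers 1 was higher and 6 were lower. Neutrophil markers had 3 of 8 higher, endothelial markers 4 of 10 higher, stellate cell markers 3 of 9 higher and 1 lower, and bile duct markers 1 of 5 lower. In the short neutrophil, endothelial, stellate cell and bile duct lists, these counts lie within a few genes of the shares over all genes. Each of the 13 hepatocyte markers tested was well above background on every array; 5 of them were higher, among them Cyp3a11 (1.80-fold) and Hnf4a (1.53-fold), and 1, Fga, was lower, with a median of 0.36 (0.076 with the scan as a block). Without WT replicate 3, calls remained in the erythroid list alone among these marker lists. In such bulk tissue, fewer cells of a type and less RNA per cell cannot be told apart, and the part of these markers in the Stat6 result was not tested.

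**Figure D2:**
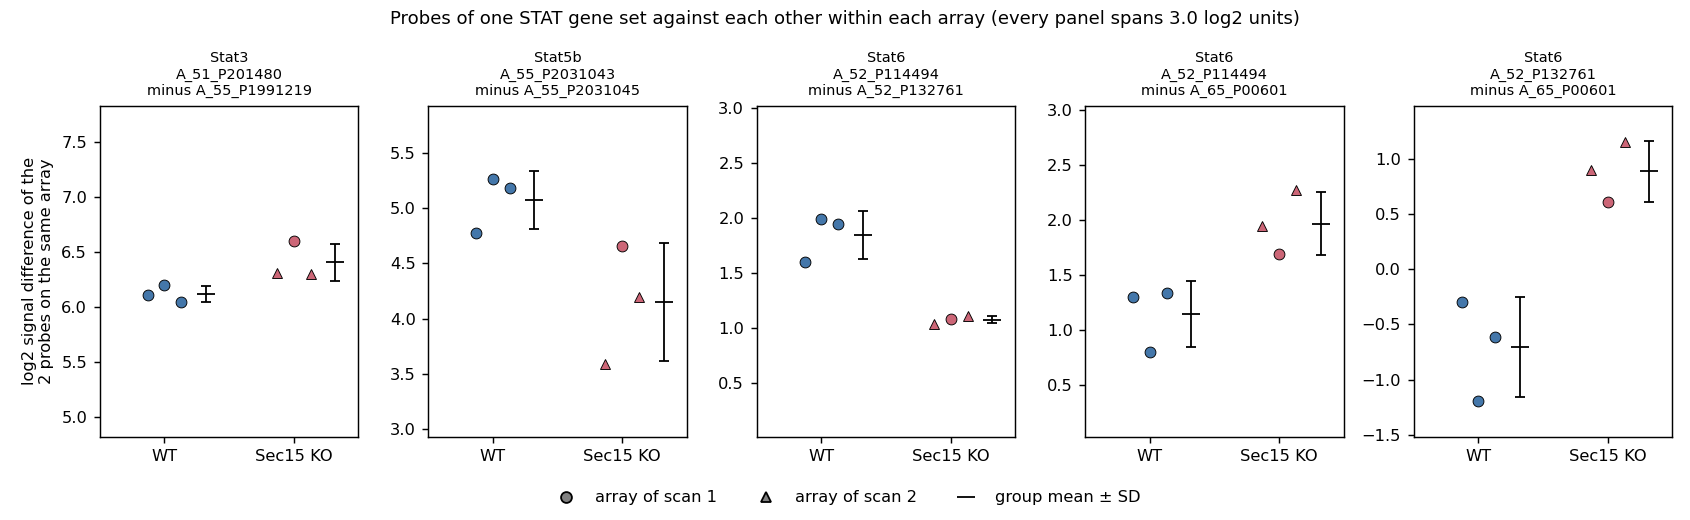
Each panel shows the log2 signal difference between a pair of probes of 1 STAT gene on the same array, with 1 point per array, circles for scan 1, triangles for scan 2 and bars for the mean ± SD of 3 arrays. In all 5 pairs the KO points lie to 1 side of the WT points, the widest gap being that between Stat6 probes A_52_P132761 and A_65_P00601. The share of such pairs over all genes was not computed.

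All 3 STAT genes with more than 1 probe had probes with differences of opposite sign, and in 2 of the 3 some but not all probes were called. Over the 3405 genes with several tested probes, the shares were 37.2% and 35.9%. For 2.38% of those genes probes were called in opposite directions, which happened in no STAT gene.

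Stat2, the partner of the interferon response, did not pass the test. Its probe (A_55_P2059606) read 2.75, 3.00 and 2.82 in WT and 2.65, 3.04 and 2.83 in KO. The groups overlapped, with a KO array at either end, and the difference was -0.019 ± 0.14 (SE) with a 95% interval from -0.35 to 0.31 (limma adjusted p = 0.923). The sign turned with the processing, at 0.18 with the scan as a block and -0.28 after cyclic loess.

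Stat4 (A_51_P177092) had the largest standard error of the 10 probes. It read -2.77, -1.53 and -2.05 in WT and -1.75, -2.13 and -1.76 in KO. The WT arrays spanned the whole KO range, so the difference of 0.23 ± 0.32 (SE) had a wide 95% interval, from -0.55 to 1.02 (limma adjusted p = 0.593). A 2.03-fold rise lies within that interval, and the difference was -0.020 with the scan as a block.

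**Figure D3:**
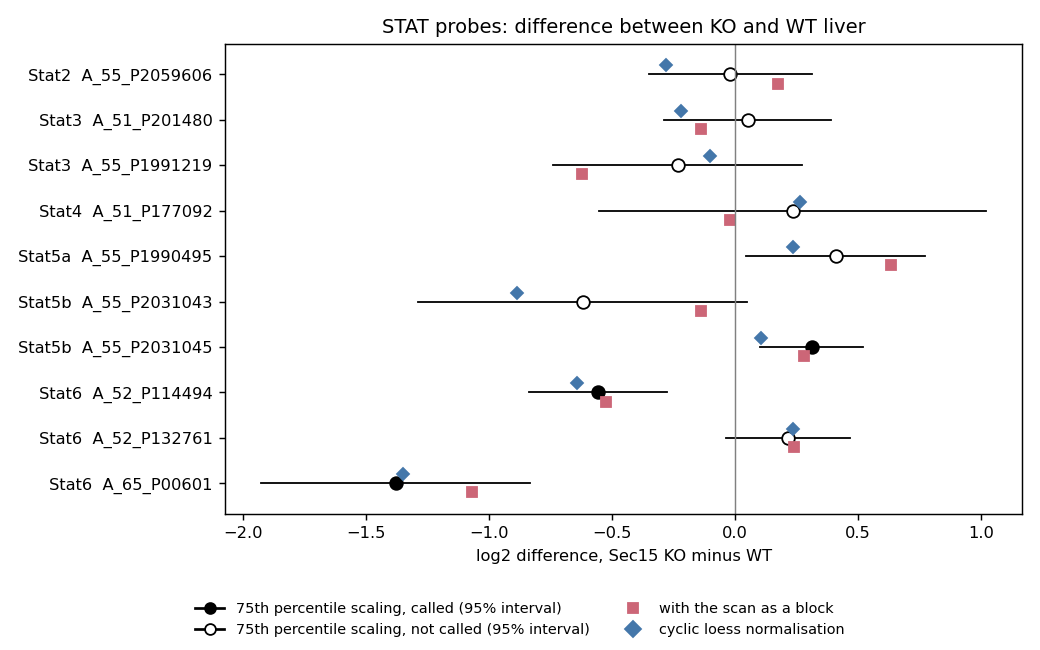
The x axis gives the log2 difference of KO minus WT for each STAT probe, with filled circles for called probes, open circles for the others and lines for 95% intervals; squares show the fit with the scan as a block and diamonds cyclic loess normalisation. Stat6 A_65_P00601 (-1.38) and A_52_P114494 (-0.56) stay below 0 in all 3 fits, while Stat2, Stat4 and Stat3 A_51_P201480 change sign between them.

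The genes whose array-by-array profile was most like that of each STAT gene's brightest probe were found by the root mean square difference of centred log2 values over the 6 arrays. For Stat3 they were Nek3 (0.0265) and Acly (0.0295), for Stat2 Gtf3c2 (0.0295) and Tbkbp1 (0.0355), and for Stat4 Pabpc6 (0.0468) and 1700029H14Rik (0.0687). For Stat5a they were Slc7a4 (0.0381) and Rybp (0.0397), for Stat5b Sik1 (0.0612) and Birc7 (0.0802), and for Stat6 Plcb1 (0.0317) and AY074887 (0.046). Plcb1 and AY074887 stood at -0.60 and -0.48, a direction that their choice by likeness to a Stat6 probe fixes. With 6 points a profile, such likeness is a description of these arrays.

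The start sites of the STAT genes were searched for 3 short motifs in RefSeq promoter windows (GRCm38.p6) that run from 250 bases before to 50 bases after the start site, on both strands. They are the STAT core TTCNNNGAA, to which most STAT dimers bind; the STAT6 core, TTC and GAA with 4 bases between them, the spacing that STAT6 prefers; and the interferon core, GAAA and GAAA with 2 bases between them, bound by the complex that holds STAT2. Cores of different kinds may overlap. Over 32851 promoters, 8.3% held the first, 6.95% the second and 3.44% the third. All 6 STAT genes matched a window. None held the STAT core, Stat2 held the STAT6 and interferon cores, and Stat4 held the interferon core. The matches are shown because they are the letters of STAT motifs at the STAT genes themselves. Each line is the 30-base window on the gene's strand with the motif in capitals; the Stat2 lines overlap and lie at chr10:128270278-128270307 and chr10:128270266-128270295 (plus strand), and the Stat4 line at chr1:52008133-52008162 (plus strand).
Stat2, STAT6 core: tcagtttcctTTCCCTAGAActcacggttc
Stat2, interferon core on the other strand: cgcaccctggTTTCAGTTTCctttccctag
Stat4, interferon core: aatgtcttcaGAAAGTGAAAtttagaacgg
A match is a description of the sequence, not a site of binding in these livers.

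The genes around the STATs were grouped by role, each gene by its brightest probe. Over the 15544 named genes tested, 29.4% were called, 18.7% higher in KO and 10.7% lower, and the median difference was 0.11; these are the values to hold each list against. The lists were chosen with results of these data known, and some genes stand in more than 1 list.

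The JAKs, which phosphorylate the STATs, had 1 of 4 called higher and 1 of 4 lower. Jak1, shared by the interleukin-6 and interferon receptors, read 1.93, 1.83 and 1.86 in WT and 2.20, 2.30 and 2.18 in KO, without overlap. It rose by 0.36 ± 0.091 (SE), or 1.28-fold (limma adjusted p = 0.0342), but by 0.14 after cyclic loess (adjusted p = 0.336) and 0.15 with normexp. Jak3, the kinase of lymphocyte cytokine receptors, read -2.76, -3.40 and -3.32 in WT and -4.53, -4.09 and -4.31 in KO, where it was not well above background on any array. With each KO signal raised to a floor, it was 1.88-fold lower in KO. The floor is the lowest signal well above background on that array, and a signal already above it is kept. Such a fold holds for the scale used here and is not a lower limit, because probes with a higher signal can miss that flag. Jak3 was kept for the test through its WT arrays alone, which favours a difference. Its call therefore gives no support for a fall, and normexp gave -0.23. Tyk2, at -0.076 ± 0.15 (SE), and Jak2, the growth hormone receptor's kinase, at -0.018 ± 0.14 (SE), did not pass the test (adjusted p = 0.708 and 0.925). Neither the Jak1 nor the Jak3 call held without WT replicate 3 (adjusted p = 0.143 and 0.0641, limma), without KO replicate 1 (0.0836 and 0.0533) or without KO replicate 3 (0.113 and 0.0685), and Jak1 was lost without WT replicate 2 as well (0.101). With the scan as a block they stood at 0.43 (adjusted p = 0.0641, limma) and -0.93 (0.0938). The 6 of 15 lymphocyte markers called lower, given above, fell alongside Jak3, and their part in its result was not tested.

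Among 30 tested receptors that signal to STATs, 4 were higher and 2 were lower, with a median of 0.28. Il6ra, the interleukin-6 receptor that feeds STAT3, read 3.40, 2.98 and 3.17 in WT and 4.39, 3.99 and 4.37 in KO. Every KO array lay above every WT array, and the gene rose 2.10-fold (limma adjusted p = 0.0116). Il2rb rose 1.73-fold and Ifngr1, the interferon gamma receptor, 1.72-fold (limma adjusted p = 0.0079 and 0.023), though Il2rb stood at 0.30 on the log2 scale with normexp.

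Il4ra, the receptor chain that activates STAT6, gave opposite calls from its pair of probes. The brighter read 0.89, 1.25 and 1.15 in WT and -0.27, 0.46 and -0.29 in KO, and it fell 2.19-fold (limma adjusted p = 0.0213). The dimmer one (A_55_P1966189) rose by 1.21 ± 0.14 (SE) (limma adjusted p = 0.0074). Like Stat6, Il4ra thus had probes that differed in sign, and a direction for its RNA as a whole cannot be read from them. A block for the scan left 1 receptor called higher and 0 lower, and fits without single arrays called 0 to 10 higher and 0 to 4 lower, fewest without WT replicate 3.

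Of 13 ligands tested, 1 was higher and 2 were lower, with a median of -0.27. Ifng, interferon gamma, read -2.48, -3.31 and -3.23 in WT and -5.88, -5.91 and -5.65 in KO. No KO array was well above background. With the floor used for Jak3 it was 2.09-fold lower in KO, which is not a lower limit. Ifng was kept for the test through its WT arrays alone, which favours a difference. Its call therefore gives no support for a fall, and normexp gave -0.49. Il10, an inhibitory cytokine that signals through STAT3, fell 3.04-fold (adjusted p = 0.0111, limma; -0.75 on the log2 scale with normexp), and Ctf1, an interleukin-6 family ligand, rose 1.35-fold (adjusted p = 0.0492). Il4, at -0.43 ± 0.13 (SE), and Il11, at -0.73 ± 0.23 (SE), missed the threshold (adjusted p = 0.0534 and 0.059, limma). Of the lymphocyte markers 6 of 15 were lower and 1 was higher, as given above, and their part in the Ifng result was not tested. When the scan was a block, 0 ligands were higher and 1 was lower, and without single arrays 0 to 2 were higher and 1 to 5 lower, fewest without WT replicate 3 or KO replicate 3.

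Brakes on STAT signalling had 4 of 15 higher and 2 of 15 lower, with a median of 0.28. Socs3, the inhibitor that STAT3 itself induces, read 1.55, 1.09 and 1.33 in WT and 0.066, 0.16 and 0.11 in KO. The KO arrays were tight and all lay below WT, and Socs3 fell by 1.21 ± 0.14 (SE), or 2.32-fold (limma adjusted p = 0.007); its difference was -1.16 with the scan as a block. Pias3, an inhibitor of STAT3, was not well above background on any KO array. With the floor used for Jak3 it was 3.29-fold lower, which is not a lower limit. It was kept for the test through its WT arrays alone, which favours a difference. Its call therefore gives no support for a fall, and normexp gave -0.76. Socs2, which STAT5 induces, read 0.77, 1.18 and 1.00 in WT and 1.76, 1.74 and 1.86 in KO. It rose 1.74-fold without overlap (limma adjusted p = 0.0125), and its other 2 probes rose as well, by 0.69 and 1.15. Ptpn11, the phosphatase SHP2, rose 1.41-fold and Pias1 1.38-fold (limma adjusted p = 0.0143 and 0.0222), but another Pias1 probe (A_55_P2068148) fell by 1.1 (adjusted p = 0.043) and yet another, A_66_P116299, stood at 0.11 (adjusted p = 0.363). Normexp gave 0.33 for Ptpn11. The scan as a block left 1 brake called higher and 2 lower, and dropping single arrays left 0 to 6 higher and 0 to 3 lower, with 0 of either without WT replicate 3.

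STAT partners and coregulators had 4 of 18 higher and 1 of 18 lower, with a median of 0.23. The acetyltransferases Crebbp and Ep300, which STATs recruit to genes, rose 1.55-fold and 1.60-fold (limma adjusted p = 0.0113 and 0.0399). Gtf2i rose 1.44-fold and Stam 1.34-fold, and Dnajc14 fell 1.92-fold (limma adjusted p = 0.0193, 0.0335 and 0.0178); normexp gave 0.23 for Gtf2i. Under the block for the scan 0 partners were higher and 1 was lower, and without WT replicate 3 or KO replicate 3 none was called.

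For nuclear transport, 3 of 10 genes were higher and none was lower, with a median of 0.40 that was 0.14 with the scan as a block. Kpna2, an importin alpha that carries cargo into the nucleus, read 2.08, 2.15 and 2.16 in WT and 2.91, 2.89 and 3.03 in KO. Its values were tight and far apart, a 1.76-fold rise (limma adjusted p = 0.007), but another Kpna2 probe (A_55_P2091402) stood at 0.19 ± 0.12 (SE) and did not pass (adjusted p = 0.253). Kpna6 rose 1.40-fold and the exporter Xpo1 1.31-fold (limma adjusted p = 0.0246 and 0.0386), though another Kpna6 probe (A_55_P1980041) stood at -0.17 ± 0.19 (SE) and another Xpo1 probe (A_51_P336635), at 0.59 ± 0.22 (SE), did not pass. Rcc1, at 0.70 ± 0.21 (SE), and Kpna1, at 0.33 ± 0.11 (SE), missed the threshold (limma adjusted p = 0.0565 and 0.0634). The block for the scan left 2 transport genes higher, and without single arrays 0 to 7 were higher and 0 lower, fewest without WT replicate 3.

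**Figure D4:**
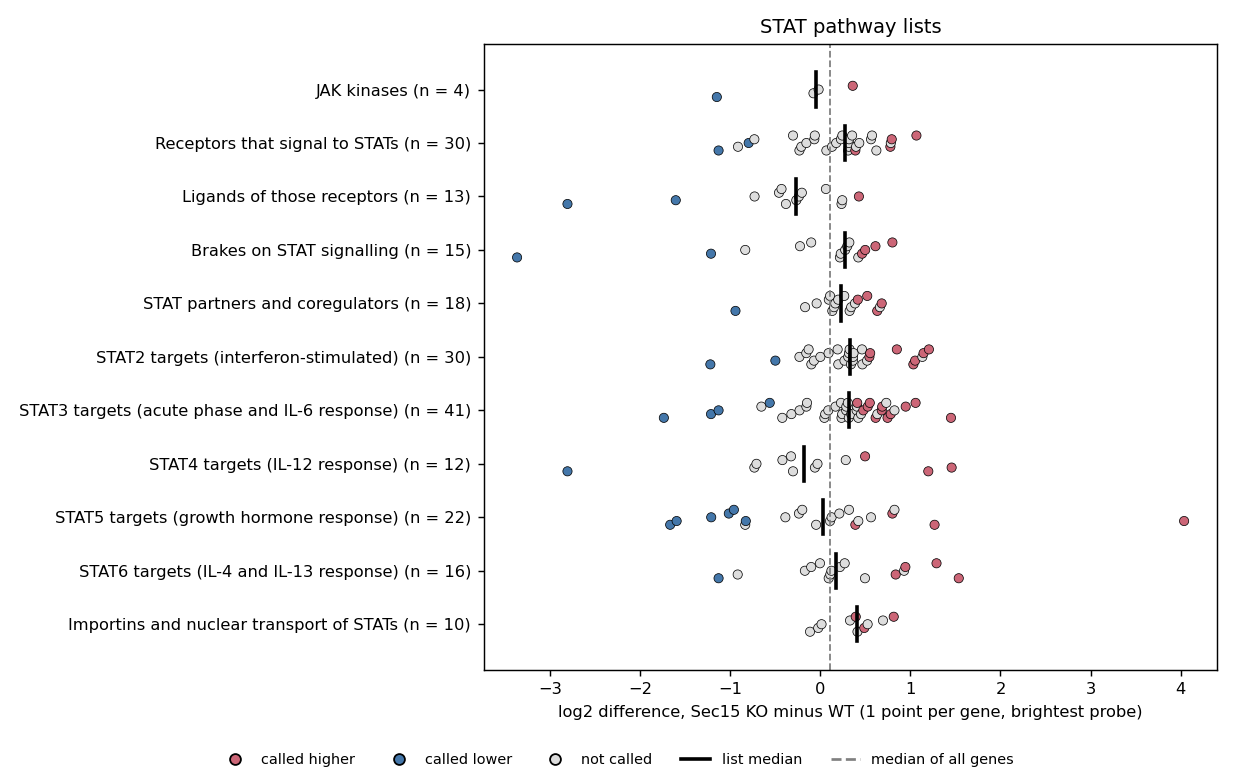
Each point is 1 gene by its brightest probe, placed by its log2 difference of KO minus WT; red points were called higher, blue points lower and grey points not called, black bars give the list median and the dashed line the median of all genes (0.11). Every list except nuclear transport holds calls in both directions. The only lower calls among the JAKs and the STAT4 targets are Jak3 and Ifng, which were kept for the test through WT arrays alone. The only lower call among the STAT6 targets is Il4ra, whose dimmer probe was called higher. The outermost points, Cux2 among the STAT5 targets and Pias3 among the brakes, are genes not well above background in 1 group, so their size is uncertain.

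STAT3 targets, mostly acute phase genes of the hepatocyte, had 12 of 41 higher and 4 of 41 lower, with a median of 0.32. The cytokine-induced factor Cebpd read 1.49, 1.13 and 1.36 in WT and 2.90, 2.64 and 2.79 in KO. All KO arrays exceeded all WT arrays, and it rose by 1.45 ± 0.13 (SE), or 2.73-fold (limma adjusted p = 0.0061). Its relative Cebpb rose 1.61-fold, Fgl1, a fibrinogen-like protein, 2.08-fold and Fgb, the fibrinogen beta chain, 1.61-fold (limma adjusted p = 0.0095, 0.007 and 0.0085). Fgb read 8.06, 7.99 and 8.05 in WT and 8.69, 8.67 and 8.79 in KO, and its groups lay apart as well. Of the 4 called lower, Socs3 and Il4ra are treated above, Il4ra with a probe that rose. Lcn2 and Fga, outside the 5 genes of smallest p, were the rest. Lcn2 fell 3.33-fold (limma adjusted p = 0.0157), the largest difference in this list. Fga fell by 0.56 by its brightest probe (limma adjusted p = 0.0245), while a dimmer one rose. With the scan as a block 5 were called higher and 2 lower, and leaving out single arrays gave 1 to 13 higher and 0 to 4 lower, fewest without WT replicate 3.

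STAT2 targets, the interferon-stimulated genes, had 7 of 30 higher and 2 of 30 lower, with a median of 0.33. Isg15, a ubiquitin-like antiviral protein, read 1.26, 1.23 and 1.23 in WT and 2.52, 1.88 and 2.42 in KO. Its WT arrays were nearly equal and all KO arrays lay above them, a 2.05-fold rise (limma adjusted p = 0.0147). Rsad2 rose 2.21-fold, Oas1a 1.80-fold and Oas2 1.47-fold (limma adjusted p = 0.0086, 0.0142 and 0.013), while Xaf1 fell 2.33-fold (adjusted p = 0.0131). With normexp Rsad2 stood at 0.71. The scan as a block gave a median of 0.050, with 4 called higher and 1 lower. Leaving out single arrays gave 0 to 14 higher and 0 to 2 lower, with none called without WT replicate 3.

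STAT5 targets, which follow the growth hormone rhythm and differ between the sexes in liver, had 4 of 22 higher and 6 of 22 lower. Of the 11 pathway lists, this one and the ligands had more genes called lower than higher. The ligand count, 1 higher and 2 lower, includes Ifng, whose entry to the test favours a difference. The median of the STAT5 targets was 0.031. Cyp4a12a, a male-predominant cytochrome, read 3.97, 4.14 and 4.06 in WT and 2.53, 2.39 and 2.47 in KO. The groups lay far apart in relation to their spread, and it fell by 1.59 ± 0.098 (SE), or 3.02-fold (limma adjusted p = 0.0029). Its close copy Cyp4a12b fell 3.17-fold and Hsd3b5, another male-predominant gene, 2.31-fold (limma adjusted p = 0.0036 and 0.0083); the Cyp4a12 genes are so alike in sequence that their probes may read both. Cux2, a female-predominant transcription factor, was not well above background on any WT array. With the WT signals raised to a floor as for Jak3, KO exceeded WT 4.20-fold, which is not a lower limit. Cux2 was kept for the test through its KO arrays alone, which favours a difference. Its call therefore gives no support for a rise, and normexp gave 1.08. Socs2 also belongs to this list and rose. With the scan as a block 2 were called higher and 4 lower, and leaving out single arrays gave 1 to 5 higher and 2 to 7 lower, fewest without WT replicate 3.

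STAT6 targets had 4 of 16 higher and 1 of 16 lower, with a median of 0.17. The macrophage genes Msr1, a scavenger receptor, Clec10a, a lectin, and Ccl24, a chemokine, rose 2.45-fold, 2.90-fold and 1.79-fold (limma adjusted p = 0.0099, 0.0293 and 0.0099), while normexp gave log2 differences of 0.43, 0.32 and 0.39. Another Msr1 probe (A_52_P127130) stood at 0.44 (adjusted p = 0.081). Gata3 rose 1.92-fold (adjusted p = 0.0452, limma; 0.38 on the log2 scale with normexp), and Il4ra was the gene called lower. The brighter Msr1 probe was well above background on 2 of 3 WT arrays and Clec10a on 1 of 3, so their folds rest partly on signals near background, and 3 of 10 Kupffer cell and macrophage markers rose alongside them, as given above; their part in this was not tested. None was called in either direction with the scan as a block, without WT replicate 3 or without KO replicate 3.

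STAT4 targets had 3 of 12 higher and 1 of 12 lower, with a median of -0.18 that turned to 0.092 with the scan as a block. Ifng was the gene called lower, a call that its entry to the test favours, as given above. Map3k8, a kinase of inflammatory signalling, rose 2.30-fold, Gadd45b, a stress-induced gene, 2.75-fold and Irf8, a factor of myeloid cells, 1.41-fold (limma adjusted p = 0.0123, 0.018 and 0.0373; Map3k8 stood at 0.47 on the log2 scale with normexp), and Selp stood at -0.32 ± 0.096 (SE; adjusted p = 0.0508). The block left 0 higher and 2 lower, and without WT replicate 3 the counts were 0 and 1. Of the other lists, the median of the JAKs turned from -0.047 to 0.15 with the scan as a block and 0.072 with arrays centred on their median, and that of the STAT5 targets to -0.089 with the block and -0.10 after cyclic loess. The block gave 0.17 for the brakes and 0.31 for the STAT6 targets, and cyclic loess gave 0.082 for the receptors, 0.063 for the partners, 0.16 for the brakes, 0.12 for the STAT3 targets and 0.11 for the STAT6 targets.

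**Figure D5:**
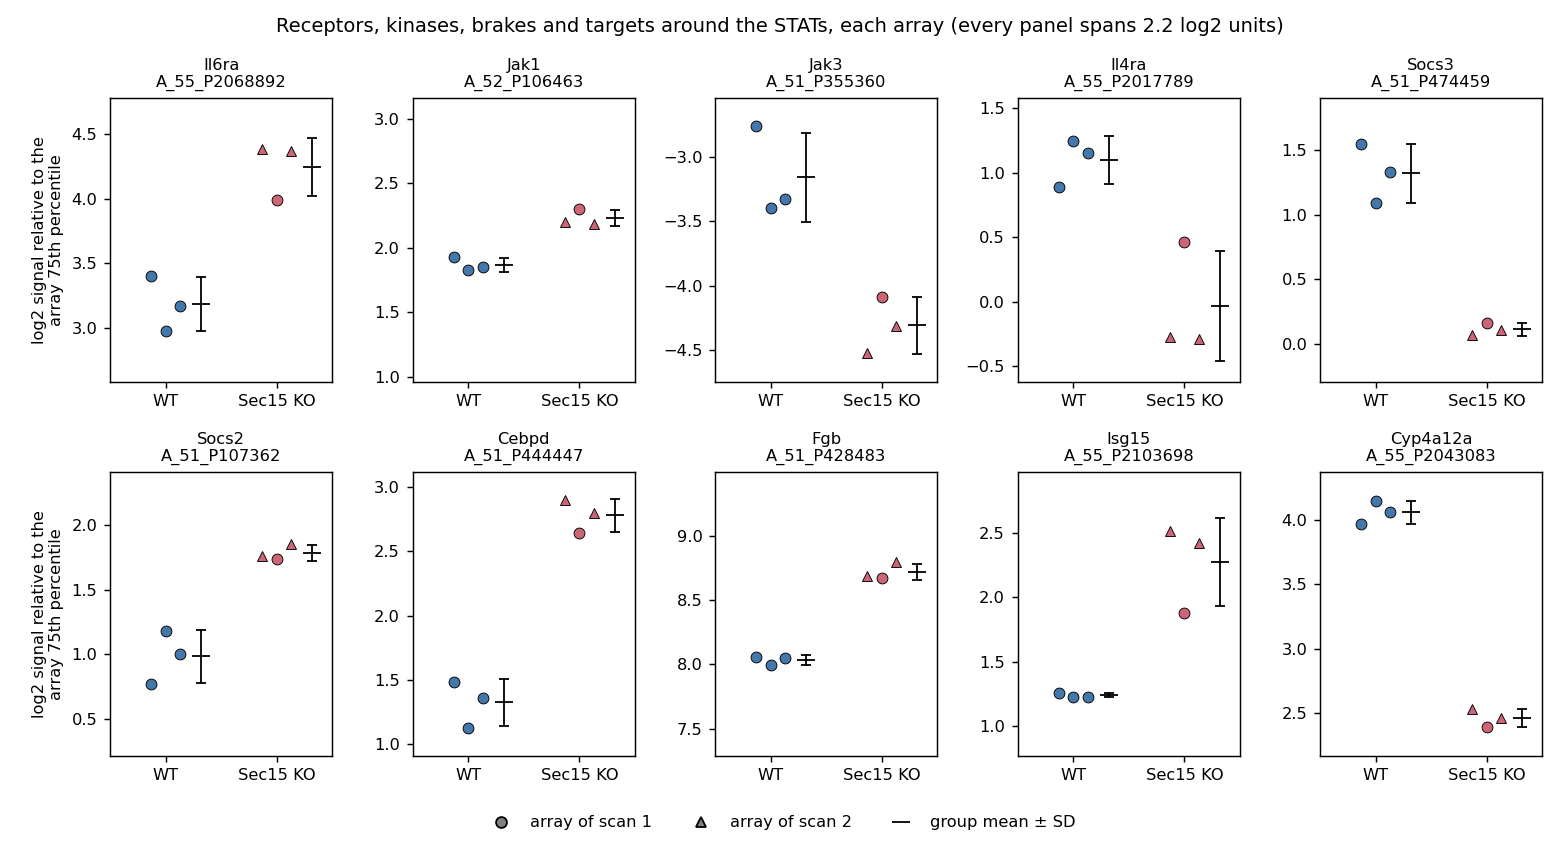
Each panel shows 1 receptor, kinase, brake or target of the STATs, with the log2 signal relative to the array 75th percentile on the y axis, 1 point per array, circles for scan 1, triangles for scan 2 and bars for the mean ± SD of 3 arrays. All 10 genes shown were called on these arrays, which largely fixed that the groups lie apart in every panel. Over all probes, the groups did not overlap for 50.2%. Jak3, Il4ra, Socs3 and Cyp4a12a lie lower in KO and the others higher. Jak3 was kept for the test through its WT arrays alone, and the dimmer Il4ra probe, not shown, was called higher.

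The same promoter search was run on the targets. The STAT core TTCNNNGAA was in 11 of the 38 STAT3 targets with a window, 5 of 20 STAT5 targets and 5 of 12 STAT4 targets, against 9.55% of the 27025 genes with a window. The interferon core was in 13 of 24 STAT2 targets, against 3.99% of genes, and the STAT6 core in 4 of 15 STAT6 targets, against 8.01%. These lists were drawn up from known targets, so the shares describe them and are no result of the knockout. Of the STAT2 targets with the interferon core, Isg15, Rsad2, Oas1a, Ifih1 and Trim30a were called higher. Ifit1, Ifit3, Oas3, Bst2, Ddx58, Eif2ak2, Cxcl10 and Ifitm3 were not called. Genes with the STAT core went in both directions. Socs3, Fga, Nox4 and Ifng were called lower, and Fgb, Irf8, Gtf2i, Hamp2, Prlr and Oas1a higher. Ifng was kept for the test through its WT arrays alone, and a dimmer Fga probe rose. The windows below show the STAT core of Socs3, Ifng, Fgb, Irf8 and Gtf2i, and the interferon core of Isg15, Rsad2 and Oas1a. They lie, in the order shown, at chr11:117969501-117969530 (minus strand), chr10:118440796-118440825 (plus), chr3:83050006-83050035 (minus), chr8:120736177-120736206 (plus), chr5:134314765-134314794 (minus), chr4:156200871-156200900 (minus), chr12:26456553-26456582 (minus) and chr5:120907526-120907555 (minus), each written 5′ to 3′ on the gene's strand with the motif in capitals.
Socs3: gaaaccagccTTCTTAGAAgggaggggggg
Ifng: tTTCAGAGAAtcccacaagaatggcacagg
Fgb: gactcaatgaTTCGAGGAAccccctgtgtc
Irf8: caaaagtgatTTCTCGGAAagagagcgctt
Gtf2i: cagcggcaccTTCGAGGAAcaaaaaaaaaa
Isg15: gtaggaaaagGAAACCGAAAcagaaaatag
Rsad2, core on the other strand: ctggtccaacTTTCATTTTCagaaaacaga
Oas1a: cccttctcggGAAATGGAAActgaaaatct
Counted from the start site, the last motif base lies at -146 in Socs3, -154 in Fgb and -241 in Ifng.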

How the data were processed

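The deposited values are intensity per spot, as Agilent Feature Extraction 11.0.1.1 wrote them: the background was subtracted and spatial trends were removed within each array, with no step between arrays, per the file headers. Other deposited columns are flags of 0 or 1 that mark spots well above background, saturated spots and outliers. The array design is annotated on mm9, per the file headers. Probes were named through their transcript accession in a RefSeq gene table of GRCm38.p6, used for names and gene order alone (27234 probes had 1 symbol and 12195 had none).

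Outliers (178 to 236 of 43020 spots on an array) were dropped, none was saturated, and the rest of a probe's spots were averaged. Each array's 75th percentile was subtracted from the log2 signals. Probes well above background on at least 3 of 6 arrays were tested, 27024 in all; a further 33 were lost to an outlier spot. The comparison of WT with Sec15 KO used limma (version 3.58.1; lmFit, then eBayes; R 4.3.3), tested on simulated data first. The number of arrays limits the precision.

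The members, gene lists and tests were chosen with earlier results of these data known. Named are all STAT and JAK probes and, per other list, up to 5 genes with the smallest p, plus probes of these that disagree. Alternatives were quantile, median and cyclic loess scaling, normexp (offset 50, on median signals), other filters, eBayes settings, array weights, 1 probe per gene, blocks for replicate number and scan, scan 1 alone, WT replicates 1 and 2 averaged because their deposited names share a number, and each array left out.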

Additional observations from a re-analysis of the deposited data

How the results depend on the processing

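The number of STAT probes called higher, 1 in the fit reported, was 0 with quantile or cyclic loess scaling, normexp, no filter, 1 probe per gene, the replicate block, the scan as a block or scan 1 alone, 2 with arrays centred on their median and 3 with array weights. The number called lower, 2, was 1 with normexp or 1 probe per gene and 0 with the scan as a block or scan 1 alone. Leaving out single arrays gave 0 to 1 higher and 0 to 3 lower. Of all probes, 4598 were higher and 3144 lower; higher calls numbered 2922 after cyclic loess, 2934 with no filter, 12002 with array weights, 1311 with the scan as a block and 0 in scan 1 alone, and lower calls 9154, 1212 and 0 in the last 3 of these. Scan 1 alone sets KO replicate 2, assumed to vary like WT, against WT; limma gave 7833 probes an unadjusted p under 0.05 there, so 0 calls is not 0 differences. Without single arrays the counts ran from 204 to 6815 higher and from 149 to 5784 lower, both lowest without WT replicate 3. Of calls, 59.4% were higher, against 70.1% with median centring, which moved the median of all probes to 0.19, and 48% after cyclic loess. The cause of these shifts was not tested, beyond the fewer samples when arrays are left out.

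All 46 called probes among the 60 named kept their direction in every setting. That outcome was largely fixed in advance, because these probes were called on the same arrays. Where groups do not overlap, only a change of scaling or background correction can turn the sign. Of the 46, 18 were called with the scan as a block, 37 after cyclic loess and 17 in both; 5 without WT replicate 3, 13 without KO replicate 3, 28 without WT replicate 2 or KO replicate 1, 43 without WT replicate 1 and 46 without KO replicate 2. Over all named probes and settings, 868 kept their side of the threshold, 227 lost a call, 34 gained one and none reversed a call. Array weights were estimated gene by gene and gave WT replicate 3 a weight of 12.005. Whether the replicate numbers pair the samples cannot be told: same-numbered deviations correlated at only 0.105, 0.108 and 0.024. KO replicates 1 and 2 correlated best with the WT array of their number, but KO replicate 3 with WT replicate 1 (0.036). The replicate block left 3431 probes higher and 2694 lower, and ended the call of the dimmer Stat5b probe (adjusted p = 0.0766). STAT probes near background, such as the dim Stat3 probe, are limited by signal.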

Other observations

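Some STAT targets and carriers outside the rule for named genes also gave probes that did not move together; they were chosen after their values were seen. Igf1, the growth hormone-induced growth factor and a STAT5 target, stood at 0.13 ± 0.13 (SE) by its brightest probe, which did not pass the test (limma adjusted p = 0.463). Another Igf1 probe (A_55_P2031636) fell by 0.83 ± 0.16 (SE) and yet another (A_55_P2085974) rose by 0.44 ± 0.11 (SE) (limma adjusted p = 0.0182 and 0.0328). The brightest probe of Fga, the fibrinogen alpha chain, fell by 0.56 ± 0.12 (SE), whereas a dimmer one (A_55_P2123381) rose by 0.88 ± 0.13 (SE) (limma adjusted p = 0.0245 and 0.0107). Of the Kpna3 probes, an importin alpha, the brightest stood at 0.014 ± 0.096 (SE) and did not pass the test, while A_55_P1962214 fell by 1.01 ± 0.26 (SE) (limma adjusted p = 0.919 and 0.0375).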
